A study of Mus musculus with 2 samples.

Results

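The genes described here are 10 imprinted genes outside the insulin-like growth factor axis, taken as a fixed list of names with every probe set that the platform annotation assigns to them. They comprise the 7 paternally expressed genes Peg3, Mest, Plagl1, Sgce, Ndn, Nnat and Dlk1, and the 3 maternally expressed or mixed genes H19, Grb10 and Gnas. Together they held 25 of the 22690 probe sets on the array. The array gave 12393 genes an unshared probe set, 9 of them members, since the single H19 probe set is also annotated to the microRNA gene Mir675. RNA came from uterine tissue between implantation sites on day 8 of pregnancy, where no embryo is attached. A Cbs null sample, from females the design text describes as homozygous Cbs deficient, was compared with a control sample of which the labels say no more than "control". Both came from 4-month-old females on a C57Bl/6J X OLA129 background, with 1 Affymetrix array per group. The labels used here do not say which part of Cbs is altered or whether a sample was 1 animal or a pool.

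An imprinted gene is transcribed mainly from the copy inherited from a particular parent, because an imprinting control region nearby was methylated in the egg or the sperm and keeps that mark in the offspring. Many paternally expressed genes favour fetal growth and many maternally expressed genes restrain it, and several go on being expressed in adult muscle, stroma, fat and nervous tissue. Cbs makes the enzyme that removes homocysteine by condensing it with serine, and homocysteine metabolism is tied to the supply of methyl groups. The arrays measured RNA levels and neither DNA methylation nor the parental copy in use.

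The sequences before the transcript starts of Mest and Nnat are shown because these genes had the lowest and the highest log2 ratio of Cbs null over control among the members measured. Each is the 250 bases before a start, from RefSeq (GRCm38.p6), 5′ to 3′ on the strand of the gene, with CG dinucleotides, the sites at which mammalian DNA is methylated, in capitals. The first belongs to the upstream Mest start, at chr6:30733256-30733505 on the plus strand, the next to a downstream Mest start, at chr6:30737800-30738049 on the plus strand, and the last to Nnat, at chr2:157559828-157560077 on the plus strand.
Mest, upstream start: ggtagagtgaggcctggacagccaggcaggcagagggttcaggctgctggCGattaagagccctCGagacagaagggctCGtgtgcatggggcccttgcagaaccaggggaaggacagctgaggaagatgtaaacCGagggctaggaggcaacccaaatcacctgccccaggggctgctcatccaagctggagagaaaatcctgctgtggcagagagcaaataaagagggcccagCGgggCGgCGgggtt
Mest, downstream start: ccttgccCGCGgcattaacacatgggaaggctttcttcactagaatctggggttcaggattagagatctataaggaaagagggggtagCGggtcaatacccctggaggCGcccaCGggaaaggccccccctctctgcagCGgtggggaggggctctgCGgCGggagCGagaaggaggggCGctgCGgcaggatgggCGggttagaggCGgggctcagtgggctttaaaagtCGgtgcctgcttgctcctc
Nnat: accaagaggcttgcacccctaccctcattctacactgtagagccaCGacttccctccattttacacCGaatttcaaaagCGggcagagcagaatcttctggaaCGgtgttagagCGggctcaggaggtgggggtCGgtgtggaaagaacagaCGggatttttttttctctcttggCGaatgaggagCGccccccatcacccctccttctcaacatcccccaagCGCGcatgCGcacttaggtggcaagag

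The upstream Mest window held 7 CG dinucleotides, the downstream window 14 and the Nnat window 12. Windows were found for 8 members, all but Sgce and H19, with 14 transcript starts in all, some only a few bases apart. Their CG count ran between 5 for Ndn and 40 for a Grb10 start, with a median of 14 over the 14 windows, against a median of 6 over all 32851 mouse windows of the same length. Of the member windows, 13 lay above that median. The hexamer TGCCGC, the motif that the imprint-maintaining zinc finger protein ZFP57 recognises when it is methylated, was searched on both strands. It occurred in 3 member windows, from the overlapping downstream Mest starts and from Plagl1, and in 8.68% of all windows. Both copies in each downstream Mest window lay on the strand opposite to the gene. The motif GCCATNT, a form of the core bound by YY1, was in none of the 14 windows on either strand and in 11.5% of all windows. A match of letters is a description of the window and not evidence of binding.

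**Figure D1:**
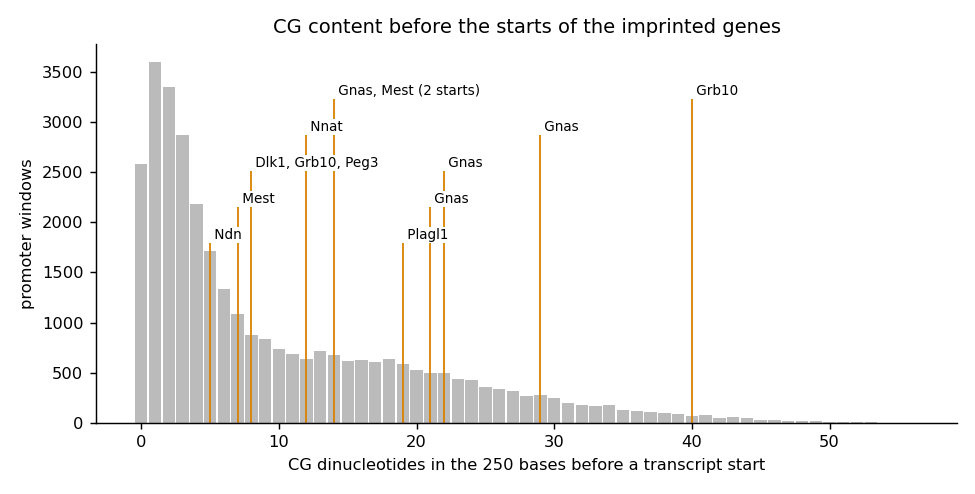
Number of CG dinucleotides in the 250 bases before a transcript start (horizontal axis) against the number of mouse promoter windows with that count (vertical axis, grey bars). Orange lines mark the 14 windows of the members, with the height of a line chosen only to separate the names, and 13 of them lie to the right of the median of 6.

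The H19 probe set could not be assigned to H19 alone. The Mir675 hairpin lies within H19 in the RefSeq gene table. Its mature products are shown as those of the gene that shares the annotation, with the seed (bases 2 to 8) in capitals. Which bases the probe set matches was not examined. Mature miR-675-5p lies at chr7:142577112-142577133 and miR-675-3p at chr7:142577078-142577099, both on the minus strand of GRCm38.p6.
mmu-miR-675-5p: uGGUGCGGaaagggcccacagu
mmu-miR-675-3p: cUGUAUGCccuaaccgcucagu
The array labelled RNA from longer transcripts, so its value is read here as the H19 host transcript with that reservation, and no level is given for the microRNA.

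Both arrays had been brought to a common scale, with a median signal of 75.6 for Cbs null and 74.55 for control. A floor was set at a signal of 43.2, the 40th percentile over the pooled arrays, to which weaker signals were raised, and a gene above it on at least 1 array was called measured, which held for 8407 genes. Cbs itself read 42.6 in the Cbs null sample and 79.8 in the control sample, at least 1.85-fold lower, and a further probe set was below the floor on both arrays. The uterine identity genes Hoxa10 and Hoxa11 were above the floor on both arrays, and none of 6 trophoblast and embryo markers with a probe set of their own was above it on either. Smooth muscle markers were lower in the Cbs null sample, with all 9 measured of 10 below 0 and a summed signal of 27452 in Cbs null and 34730 in control. Epithelium markers were higher, 8 of 8, with sums of 5486 in Cbs null and 3491 in control, and so were macrophage markers, 5 of 5, with sums of 2733 in Cbs null and 1754 in control. Among 5 decidual markers, Tdo2, a tryptophan-degrading dioxygenase, read 27.4 in Cbs null and 685.3 in control, at least 15.9-fold lower, and the decidual prolactin family gene Prl8a2 read 5.8 in Cbs null and 424.4 in control, at least 9.82-fold lower. The other 3, Bmp2, Wnt4 and Hand2, had log2 ratios between 0.02 and 0.48. Of the uterine natural killer cell markers, 4 of 5 were measured with 3 below 0, and the granzyme gene Gzma read 39.7 in Cbs null and 113.2 in control, at least 2.62-fold lower. These marker differences accompany every comparison below, and their part in any of them was not tested. In such bulk tissue, fewer cells of a type and less RNA per cell cannot be told apart. A single array per group leaves every difference without replication, so none was tested.

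None of the 8 members measured through a probe set of their own was 1.5-fold apart in either direction, and so none was 2-fold apart. Among all 8407 measured genes, the Cbs null sample had 3.63% higher and 3.4% lower by that factor, together 7.03%, so a count of 0 in a group this small is close to that background. At 2-fold the shares were 0.797% higher and 0.714% lower. The member furthest from equality was Mest, 1.41-fold lower in the Cbs null sample. Of the 25 member probe sets, 16 were above the floor on both arrays and 9 on neither, so no member entered through a single array. Of those 16, 5 had a log2 ratio of Cbs null over control above 0 and 11 below 0, but 5 of the lower ones are repeated readings of Ndn. By gene, 3 of the 8 members were above 0 and 5 below 0, where all measured genes split into 53.3% above 0 and 46.5% below 0.

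**Figure D2:**
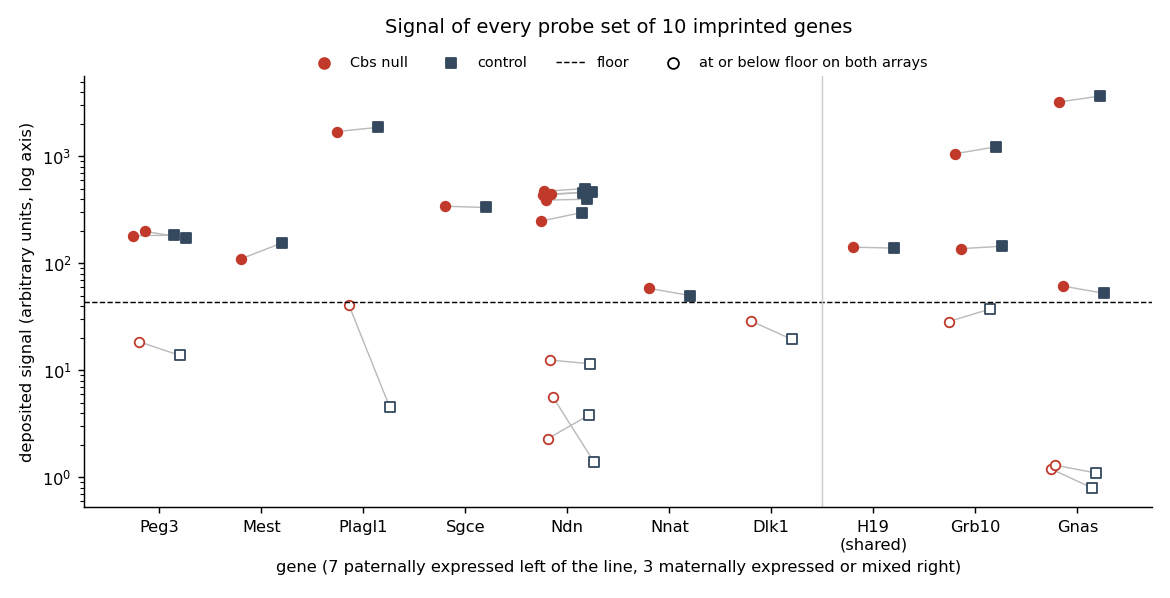
Deposited signal of each probe set (vertical axis, arbitrary units, log scale) for the 10 imprinted genes, with Cbs null as red circles to the left of control as dark squares and a grey line joining the values of a probe set. The dashed line is the floor of 43.2; open symbols are the 9 probe sets at or below it on both arrays, among them the only Dlk1 probe set, and the lines of the other 16 run close to level except for Mest.

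Peg3 and Plagl1 encode zinc finger transcription factors. Peg3, which affects growth and maternal behaviour in mice, read 199.2 in the Cbs null sample and 171.9 in the control sample, a log2 ratio of 0.21. Another Peg3 probe set read 181.0 in Cbs null and 183.4 in control, a log2 ratio of -0.02, and the remaining one was below the floor on both arrays. The technical SD of a single log2 ratio on these arrays was 0.22. It came from a comparison of the 2 brightest probe sets of each of 2757 genes. The measured Peg3 log2 ratios differ by about that size, and a difference between 2 ratios has a wider spread than a single ratio. Plagl1, an inducer of cell cycle arrest and a regulator of a network of imprinted genes in mouse, read 1705 in Cbs null and 1864 in control, a log2 ratio of -0.13. That value rests on a probe set with the suffix _x_at, which marks probes that can match other transcripts. The other Plagl1 probe set read 40.4 in Cbs null and 4.5 in control. Both values lie below the floor, where signals have no reliable order, so it gives neither a direction nor a fold.

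Mest encodes a protein of the alpha/beta hydrolase fold family that is linked to fetal growth and to the enlargement of fat tissue in mouse. Its only probe set read 110.1 in the Cbs null sample and 154.8 in the control sample, a log2 ratio of -0.49. Of all measured genes, 5.07% had a lower log2 ratio and 10.6% were at least as far from 0 in either direction. The size was 2.28 technical SDs, where the SD covers measurement within these arrays and not variation between mice. For genes whose weaker probe set lay under 4 times the floor, as Mest does, the technical SD was 0.26, and for brighter ones 0.15. The adipocyte markers Adipoq and Fabp4, also lower in the Cbs null sample, had log2 ratios of -0.32 and -0.37.

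Sgce encodes epsilon-sarcoglycan, a membrane glycoprotein of the dystrophin-associated complex in smooth muscle and other tissues. It read 341.9 in the Cbs null sample and 332.6 in the control sample, a log2 ratio of 0.04. The value lay well within the technical SD, while every measured smooth muscle marker was below 0, between -0.77 for Actg2 and -0.07 for Acta2.

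Ndn encodes necdin, a MAGE family protein known for holding neurons out of the cell cycle. It was the member with the most probe sets, 8, of which 5 were above the floor. The brightest read 471.5 in the Cbs null sample and 500.1 in the control sample, a log2 ratio of -0.08. The other 4 read 443.7, 435.5, 390.0 and 248.3 in Cbs null, and in the same order 467.9, 458.8, 397.5 and 297.7 in control. All 5 were slightly lower in the Cbs null sample, with log2 ratios between -0.26 and -0.03. They report on a single transcript in the same pair of samples, so they are repeated readings and not replicates. Nnat encodes neuronatin, a small membrane protein of the endoplasmic reticulum that affects calcium handling. It read 58.4 in the Cbs null sample and 50.0 in the control sample, a log2 ratio of 0.22. Both values were close to the floor, and Nnat was no longer measured once the floor was raised to the 60th percentile. Of 7 neuron and glia markers with an unshared probe set, 6 were below the floor on both arrays, and the neuronal gene Stmn2 read 23.8 in Cbs null and 73.5 in control.

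Dlk1 encodes a membrane protein with epidermal growth factor repeats, related to Notch ligands, that holds back the formation of fat cells. Its only probe set read 28.9 in the Cbs null sample and 19.5 in the control sample, both below the floor, so it was not measured. Its maternally expressed neighbour Meg3, a long noncoding RNA, was above the floor on both arrays in 4 of 5 probe sets. The brightest Meg3 probe set read 768.0 in Cbs null and 720.2 in control, a log2 ratio of 0.09. The other 3 had log2 ratios of -0.35, -0.01 and 0.06, so Meg3 had no common direction.

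Among the maternally expressed or mixed genes, H19, a noncoding RNA that restrains growth, was represented by the probe set shared with Mir675. That probe set read 141.6 in the Cbs null sample and 138.8 in the control sample, a log2 ratio of 0.03. Grb10 encodes an adaptor protein that dampens signalling from the insulin and insulin-like growth factor receptors, and in mouse it is expressed from the maternal copy in most tissues and from the paternal copy in neurons. Its brightest probe set read 1058 in Cbs null and 1226 in control, a log2 ratio of -0.21. A further Grb10 probe set read 137.2 in Cbs null and 144.5 in control, a log2 ratio of -0.07, and the last was below the floor on both arrays. Both measured Grb10 readings were lower in the Cbs null sample by no more than about a technical SD.

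Gnas encodes the stimulatory G protein alpha subunit, which couples hormone receptors to cyclic AMP, and its locus also makes transcripts from the maternal copy alone and from the paternal copy alone. The brightest probe set read 3225 in the Cbs null sample and 3659 in the control sample, a log2 ratio of -0.18. It carries the suffix _s_at, which marks probes shared by several transcripts. Another probe set went the other way, at 61.3 in Cbs null and 52.5 in control, a log2 ratio of 0.22. Both of its values were close to the floor, and its log2 ratio was under the technical SD of 0.26 for weaker probe sets. The remaining pair read between 0.8 and 1.3 on both arrays. Which Gnas transcripts each probe set detects is not given in the annotation used here, so the direction for Gnas depends on the probe set.

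**Figure D3:**
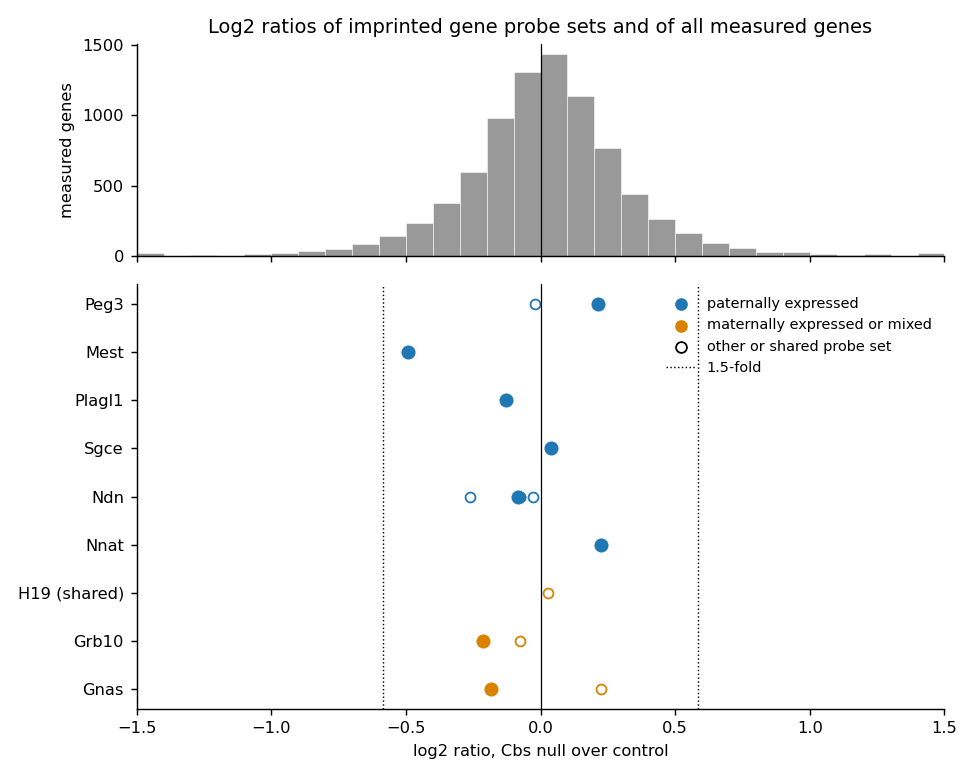
Top, number of the 8407 measured genes (vertical axis) by log2 ratio of Cbs null over control (horizontal axis), with genes beyond 1.5 in either direction counted in the end bins. Bottom, each member probe set above the floor on the same axis, with filled points for the probe set that represents a gene and open points for its other or shared ones; all 16 lie between the dotted lines at 1.5-fold, from Mest at -0.49 to Nnat and the weaker Gnas probe set at 0.22.

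The comparison of the classes set the paternally expressed genes beside the maternally expressed or mixed ones. It does not cleanly separate opposite parental copies, since the copy in use was not measured and the Gnas locus makes transcripts from either. The 6 measured paternally expressed genes had a median log2 ratio of -0.02, with 3 above 0 and 3 below 0 and a range of -0.49 to 0.22. The 2 measured maternally expressed or mixed genes, Grb10 and Gnas, had a median of -0.20, with both below 0. The median over all measured genes was 0.02. The difference between the class medians, paternally expressed minus maternally expressed or mixed, was 0.17. The arrays give no error for a median of so few genes, so this value cannot be called large or small. With the shared probe set taken for H19, the maternally expressed or mixed median was -0.18 and the difference 0.16. The difference was 0.03 when the probe sets of a gene were averaged and 0.03 when probe sets with the suffix _s_at or _x_at were left out. The average counts a probe set below the floor on both arrays as a log2 ratio of 0, which draws it towards 0. Without those probe sets the class medians were 0.04 for the paternally expressed and 0.01 for the maternally expressed or mixed genes. Gnas was then read from its probe set close to the floor. The members of a class are not replicates of it, and the difference was not tested.

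A wider set of imprinted mouse genes was read in the same way. Of 60 further genes imprinted in at least some tissues, 44 had a probe set of their own and 26 were measured, with a median log2 ratio of 0.03, 14 above 0 and 12 below 0. With signals raised to the floor, none was 1.5-fold higher and 2 were 1.5-fold lower or more. The shares of all measured genes were 3.63% and 3.4%, so these counts are close to that background. Asb4 and Nap1l5 passed the floor in Cbs null alone, at least 1.43-fold and 1.25-fold higher, so each could exceed 1.5-fold. Tfpi2, an inhibitor of serine proteases imprinted in the mouse placenta, read 57.2 in the Cbs null sample and 115.6 in the control sample, 2.02-fold lower. Gatm, which catalyses the first step of creatine synthesis and is also imprinted in the mouse placenta, read 137.5 in Cbs null and 230.9 in control, 1.68-fold lower. Both rest on a single probe set, and the Cbs null value of Tfpi2 was close to the floor. Among the 6 measured genes of this set paternally expressed in at least some tissues the median was 0.14. Among the 20 maternally expressed in at least some tissues it was 0.03. Which copy was in use in these samples was not measured.

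Airn and Gab1, the brightest of the listed genes paternally expressed in at least some tissues, had log2 ratios of -0.04 and 0.44. Airn is the antisense noncoding RNA that silences Igf2r on the paternal copy, and Gab1 is a docking protein of receptor tyrosine kinases. Rasgrf1, a guanine nucleotide exchange factor for Ras singled out after its value was seen, read 142.7 in Cbs null and 99.1 in control, a log2 ratio of 0.53. Asb4, a maternally expressed gene of the ankyrin repeat family singled out likewise, read 61.7 in Cbs null and 37.1 in control, at least 1.43-fold higher, so the order of these genes is not known. Cdkn1c, a maternally expressed inhibitor of cyclin-dependent kinases that was likewise singled out, read 338.5 in Cbs null and 335.0 in control. The imprinted genes of the growth factor axis, Igf2 and its clearance receptor Igf2r, had log2 ratios of -0.23 and 0.17.

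Snrpn, a paternally expressed gene for a small nuclear ribonucleoprotein and a neighbour of Ndn, was singled out after its values were seen. Its own probe set read 2.6 in Cbs null and 1.0 in control. Of the probe sets it shares with the Snurf reading frame on the same transcript, 4 passed the floor in 1 sample or both and all were lower in the Cbs null sample. The brightest read 614.2 in Cbs null and 722.5 in control, a log2 ratio of -0.23. Another read 91.3 in Cbs null and 177.5 in control, a log2 ratio of -0.96, and the remaining pair stood at -0.21 and -0.17, the last of these above the floor in control alone. Of the 4, only the brightest lacks the suffix _s_at or _x_at, which marks probes shared by several transcripts or able to match others. The readings of these probe sets therefore disagreed in size by more than the technical SD of a single log2 ratio.

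**Figure D4:**
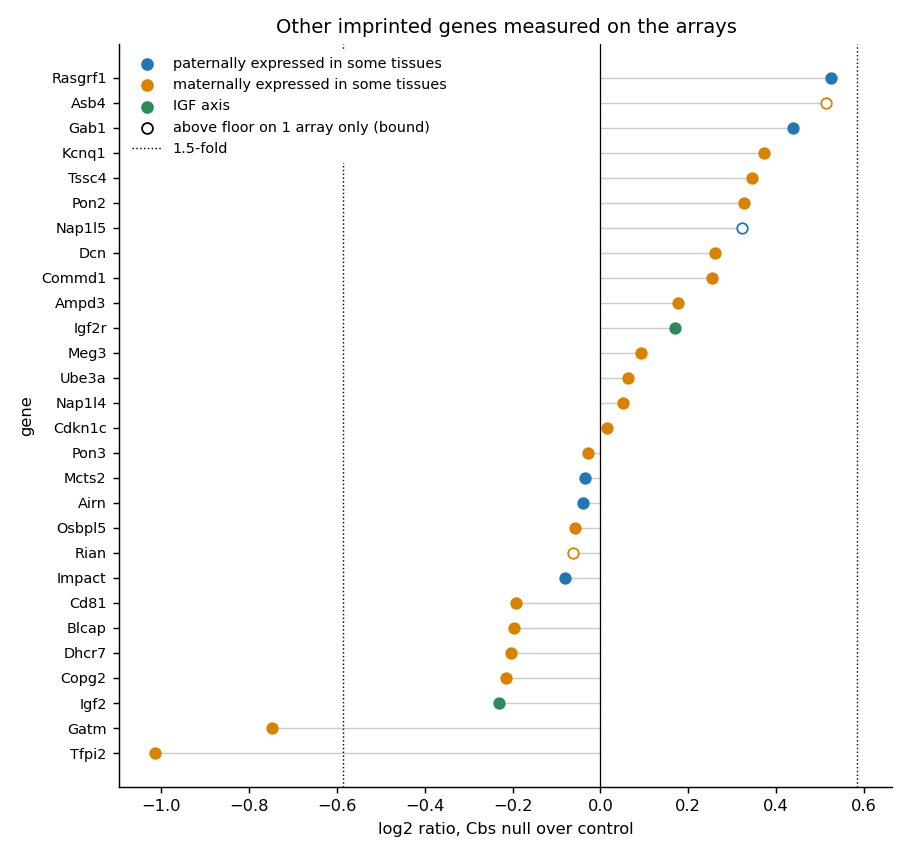
Log2 ratio of Cbs null over control (horizontal axis) for the 26 further imprinted genes measured and for Igf2 and Igf2r (rows, ordered by ratio). Open points are genes above the floor on 1 array only, whose ratio is a bound, and dotted lines mark 1.5-fold; Tfpi2 and Gatm alone lie beyond them, both lower in the Cbs null sample.

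The genes that flank the members had log2 ratios centred near 0. Taking the nearest 3 genes on each side with a probe set of their own gave 60 neighbours, of which 34 were measured. Their median log2 ratio was -0.01, with 17 above 0 and 17 below 0 and a range of -0.49 to 0.34. None reached 1.5-fold with signals raised to the floor, where 7.03% of all measured genes did. The folds of Tnnt3 and Rian, above the floor in control alone, are lower bounds. All 6 neighbours of Peg3 were below the floor on both arrays, and so were all 6 neighbours of Ndn, counted by the probe sets that carry a single gene symbol. Peg10, which lies next to Sgce and is also paternally expressed, read 8.0 in Cbs null and 1.2 in control, both below the floor. Next to Mest, the coatomer subunit gene Copg2 had a log2 ratio of -0.21, in the same direction as Mest. The other measured neighbour of Mest, Lncpint, was at 0.11, in the opposite direction. Blcap, the gene beside Nnat, was at -0.20, opposite to Nnat. The other measured neighbours of Nnat lay on both sides of 0, between -0.29 for Rprd1b and 0.17 for Ctnnbl1.

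Genes that act with the members were read from lists of their known partners. In the list of DNA methylation and imprint maintenance, 12 of 18 genes were measured, with 6 above 0 and 6 below 0 and a median log2 ratio of 0.00. Its brightest members, Trim28, the corepressor recruited by ZFP57, and Yy1 stood at 0.06 and 0.12. With signals raised to the floor, no gene of the list reached 1.5-fold, where 7.03% of all measured genes did. The maintenance methyltransferase gene Dnmt1 read 201.6 in Cbs null and 210.3 in control. Its partner Uhrf1, like Dnmt1 singled out after its value was seen, read 31.6 in Cbs null and 61.4 in control, at least 1.42-fold lower. That lower bound leaves a difference of 1.5-fold possible. Of 4 measured cell cycle markers 3 were below 0, the lowest being Rrm2 at -2.32, and their part in the Uhrf1 value was not tested. Zfp57 read 33.6 in Cbs null and 44.1 in control, barely above the floor in control alone.

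The partners of Sgce in the sarcoglycan and dystrophin complex had a median log2 ratio of -0.09 over 5 measured genes, with Dag1, the dystroglycan precursor, at -0.12 and Utrn, the dystrophin relative utrophin, at 0.03. Around Gnas, 15 genes of cyclic AMP signalling had a median of -0.09, with 6 above 0 and 9 below 0. They ranged from -0.55 for Prkaca to 0.33 for Prkacb. The brightest were Rgs2, a regulator of G protein signalling, at -0.30 and the gamma subunit gene Gng12 at 0.03. Around Grb10, 7 genes of insulin and insulin-like growth factor receptor signalling had a median of 0.07, with the ubiquitin ligase gene Nedd4 at 0.07 and the receptor substrate gene Irs1 at -0.25. With signals raised to the floor, no gene of these lists reached 1.5-fold, where 7.03% of all measured genes did. Prkar2a, at 29.1 in Cbs null and 46.9 in control, had only a lower bound, of 1.09-fold.

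The Notch list, read beside Dlk1, had all 10 genes measured, with a median log2 ratio of 0.04 and with Notch2 at 0.23 and Notch3 at -0.06. The calcium pump list, read beside Nnat, had 3 measured genes, with Atp2a2 at 0.00 and Atp2a3 at 0.23. In the Plagl1 network list, 1 of 6 measured genes was 1.5-fold apart, where 7.03% of all measured genes were. In so short a list, 1 such gene is no result about the list. The gene was Slc2a4, the insulin-responsive glucose transporter, which read 115.0 in Cbs null and 202.7 in control, 1.76-fold lower. Its other probe set, barely above the floor at 46.9 in Cbs null and 43.7 in control, did not repeat that difference. In the list of reported partners of Ndn and Peg3, the cyclin D1 gene Ccnd1 read 614.4 in Cbs null and 925.8 in control, 1.51-fold lower, and its other probe sets were 1.81-fold and 1.21-fold lower. The other 2 of 3 measured genes of that list were higher without reaching 1.5-fold. They were the ubiquitin ligase gene Siah1a at 0.34 and the survival gene Bcl2 at 0.22, so the median of the list was 0.22. Beside the share of 7.03% of all measured genes, 1 gene beyond 1.5-fold is again no result about the list.

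**Figure D5:**
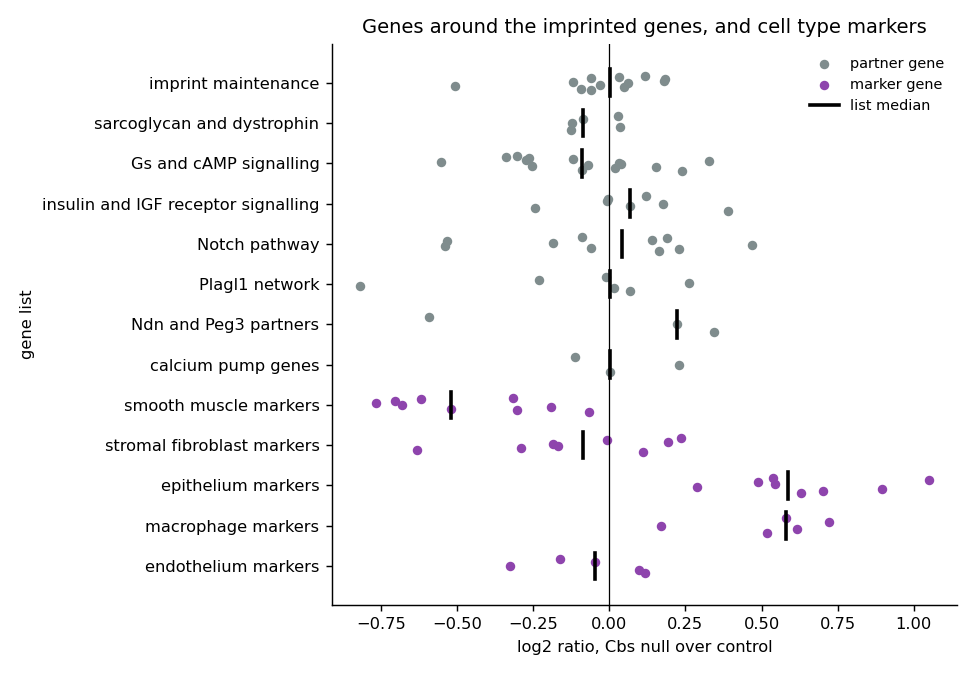
Log2 ratio of Cbs null over control (horizontal axis) for each measured gene of 8 partner lists (grey) and 5 cell type marker lists (purple), with a black bar at the median of each list. The medians of the partner lists lie between -0.09 and 0.22, the highest being that of the Ndn and Peg3 partners with 3 measured genes; smooth muscle markers lie at a median of -0.52 and epithelium and macrophage markers at 0.59 and 0.58.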

How the data were processed

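Total RNA from uterine tissue was labelled with biotin from 2 microg per sample, per the labels' protocols. The authors' deposited table gives an intensity, on a linear scale, for each probe set on each array. The submitters' processing notes name GCOS 1.4. Not given in the sources used here are the probe summary, the scaling target and any detection calls. On these arrays, 2% trimmed means were 200.07 for Cbs null and 200.08 for control, so the values were used as deposited, and each ratio stands relative to the array's total. Of 22690 probe sets, 64 were Affymetrix controls; of the others, 20380 carried 1 gene symbol, 691 several and 1555 none in the platform annotation.

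The brightest probe set by mean log2 signal, among those with 1 symbol, stood for a gene, and all other probe sets of the members were read too. Log2 ratios, Cbs null over control, used signals raised to the floor of 43.2. A value at or below the floor makes a fold a lower bound. Genes were described by size, 1.5-fold and 2-fold. All members were named; of each list, genes at least 1.5-fold apart (up to 4) or else the 2 brightest; of neighbours, those at least 1.5-fold apart. Other names are said to have been singled out, or belong to a list or neighbourhood described. The RefSeq gene table (GRCm38.p6) served only for neighbours and for placing the Mir675 hairpin within H19, since the array values name no build. The members and lists were chosen with earlier results of these data known. The calculation was tested on simulated data. Alternatives covered centring, quantile normalization, a floor at the 20th or the 60th percentile, a pseudocount of 16, averaged probe sets, leaving out _s_at and _x_at probe sets and 2-fold; taking the shared probe set for H19 was added after seeing the data. The number of arrays limits the precision. Python 3.11.15 and pandas 2.3.3 were used.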

Additional observations from a re-analysis of the deposited data

How the results depend on the processing

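No member was 1.5-fold higher or 1.5-fold lower (0 of each) under any alternative run. The class medians moved with the settings. That of the paternally expressed genes, reported as -0.02, was -0.042 after centring, 0.040 and -0.085 with the floor at the 20th and 60th percentile, -0.012 with probe sets averaged and 0.040 without _s_at and _x_at probe sets. That of the maternally expressed or mixed genes, reported as -0.20, was -0.043 with probe sets averaged and 0.0054 without those probe sets, a change of sign. The difference, reported as 0.17, was 0.24 and 0.11 under the lower and the higher floor, 0.031 with probe sets averaged and 0.034 without those probe sets. Mest stayed below 0, between -0.51 and -0.36. Gnas changed sign, to 0.22 without those probe sets and to 0.01 with probe sets averaged. Another Gnas probe set, close to the floor, then contributes. The average also counts probe sets below the floor on both arrays as 0. Without those probe sets Plagl1 was not measured. Dlk1 was measured with the floor at the 20th percentile alone, at 0.57, and Nnat was not measured with the floor at the 60th. No paired analysis was possible because each group had 1 array. Signals near the floor limit what can be said of Dlk1, Nnat and the weaker Gnas probe set.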
